A study of Mus musculus with 83 samples.

Results

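The GABA-A receptor subunits described here are 7 genes, Gabra2, Gabra3, Gabra4, Gabra5, Gabrb1, Gabrb2 and Gabrd, found by symbol among 48795 genes in a table of raw counts. All 7 were present in the table, and all 7 passed the filter on low counts in every fit. The libraries came from the frontal cortex of male C57BL/6 mice that were young (2 months) or old (22 months). No genotype or treatment other than age is named in the labels. Each library was a pool of 125 neurons cut by laser from 14 µm sections of fresh frozen tissue. Pyramidal cells (PYC) were recognised by staining for Slc17a7, and 3 interneuron types by staining for Pvalb (PV, parvalbumin cells), Sst (SST, somatostatin cells) and Vip (VIP, vasoactive intestinal peptide cells). There were 12 old libraries of each type, 9 young libraries each of PYC, SST and VIP, and 8 of PV, 83 in all. Such a pool averages over the subtypes within a class, and a lower value in it cannot be told apart from fewer expressing cells or less RNA per cell.

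GABA-A receptors are chloride channels of 5 subunits that carry most fast inhibition in the cortex. A receptor usually holds alpha and beta subunits, which together form the GABA sites, and either a gamma subunit, which is needed for clustering at synapses, or delta, which places the receptor outside synapses where it responds to ambient GABA. Alpha 2 and alpha 3 are mainly synaptic alpha subunits, alpha 5 is found largely outside synapses, and alpha 4 is a classical partner of delta. The choice of alpha and beta subunit sets the sensitivity to GABA, the speed of the current and the response to benzodiazepines, anaesthetics and neurosteroids.

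The depth of a library was 1.46 to 27.2 M counts (median 6.99 M), spread over 11809 to 18248 detected genes. Among the 4 staining targets, Pvalb set the PV pools apart. Its medians were 73.6 and 95.6 counts scaled to the library total (CPM) in old and young PV pools. In any other group its median was no more than 5.46 CPM. In the tests of each type against the others described below, 1 target was called higher in each type. The targets called lower were 3 in PV (8.75% of all genes tested), 2 in PYC (5.31%), 2 in SST (2.55%) and 0 in VIP pools (4.18%). Slc17a7 was also present in the interneuron pools, at medians of 296 CPM in old PV, 321 CPM in old SST and 495 CPM in old VIP pools, against 720.2 CPM in old PYC pools. The mitochondrially encoded genes held 8.31% to 17.0% of the counts in 77 libraries and 0.215% to 2.51% in 6. These 6 were PYC young replicate 2, SST young replicate 6, VIP young replicates 1 and 3, PYC old replicate 10 and VIP old replicate 11. Their values are set apart below for Gabra4 and Gabrb2 only. All ranges include them, and some range ends are theirs. Among these, PYC young replicate 2 had the highest Gabra2 (143 CPM) and the lowest Gabra3 (15.6 CPM) and Gabrb2 (52.3 CPM) of its group. VIP young replicate 3 had the highest Gabra2 (166 CPM) and the lowest Gabrb2 (12.6 CPM). VIP young replicate 1 had the lowest Gabrb1 (49.7 CPM) and the highest Gabrd (59.1 CPM). Libraries are numbered within a group by accession order, and a number links no libraries between groups.

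Most GABA-A subunit genes lie in clusters that are conserved in mammals. On the GRCm38 assembly, with GENCODE release M21 gene models, Gabra2 (chr5:70957597-71095849, minus strand), Gabra4 (chr5:71569749-71658308, minus strand) and Gabrb1 (chr5:71658113-72149037, plus strand) are neighbours on chromosome 5. Gabra5 is at chr7:57407672-57510059 (minus strand), Gabrb2 at chr11:42419757-42629028 (plus strand), Gabra3 at chrX:72432681-72656848 (minus strand) and Gabrd at chr4:155384980-155398112 (minus strand). Gabra4 and Gabrb1 are arranged head to head, and 196 bp of their exons overlap on opposite strands. An exon of Gabra5 overlaps the antisense gene Gm9962. No source used here gives the strand setting of the authors' counting, and reads from these shared bases cannot be told apart.

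Promoter sequences from RefSeq (GRCm38.p6, 250 bases before to 50 after each annotated start) matched 6 of the 7 genes. Gabrd had no entry. The bases upstream of the start are shown for the 4 matched genes with the largest differences between neuron types, so that their composition can be compared beside their values. Each is 5′ to 3′ on the strand of its gene, cut to bases outside annotated exons, with motif matches in capitals. The stretches are chr5:71095850-71096099 for Gabra2 (minus strand), chr5:71699825-71699931 for the downstream start of Gabrb1 (plus strand), chr11:42420190-42420439 for the first start of Gabrb2 (plus strand) and chr7:57510060-57510309 for Gabra5 (minus strand).
Gabra2: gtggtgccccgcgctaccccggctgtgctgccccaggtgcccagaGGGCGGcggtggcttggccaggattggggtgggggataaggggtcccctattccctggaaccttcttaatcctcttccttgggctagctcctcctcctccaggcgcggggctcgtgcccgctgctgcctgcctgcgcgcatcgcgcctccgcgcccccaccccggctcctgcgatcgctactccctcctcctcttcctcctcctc
Gabrb1: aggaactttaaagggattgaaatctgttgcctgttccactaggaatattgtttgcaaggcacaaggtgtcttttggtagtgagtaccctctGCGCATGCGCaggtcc
Gabrb2: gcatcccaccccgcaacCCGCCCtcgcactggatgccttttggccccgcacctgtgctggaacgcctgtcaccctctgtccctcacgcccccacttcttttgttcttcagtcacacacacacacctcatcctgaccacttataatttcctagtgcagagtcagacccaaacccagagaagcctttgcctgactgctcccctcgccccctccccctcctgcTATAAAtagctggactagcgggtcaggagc
Gabra5: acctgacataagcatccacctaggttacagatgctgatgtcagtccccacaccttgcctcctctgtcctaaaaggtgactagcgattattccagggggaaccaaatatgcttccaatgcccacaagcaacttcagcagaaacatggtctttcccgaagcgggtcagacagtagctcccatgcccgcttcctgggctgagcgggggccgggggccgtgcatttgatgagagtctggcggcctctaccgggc

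Motifs were searched on both strands. In the stretches printed, the GC box GGGCGG (or CCGCCC on the other strand) matched once in Gabra2 and once in Gabrb2, and it occurs in 35.7% of all 32851 RefSeq promoter windows of 300 bases. TATAAA, the TATA box, matched once in Gabrb2, and 13.6% of the windows hold it. GCGCATGC, a core of the NRF1 site, was added to the search after the sequences had been read. It matched 2 times in Gabrb1, in overlapping positions on opposite strands, and 2.71% of the windows hold it. TGACGTCA (a cyclic AMP response element, 1.79% of the windows), CACGTG (an E-box, 7.15%) and GCGGGGGCG (an EGR site, 2.91%) matched in none of the 10 windows of these genes. The full 300-base window of Gabra2 was 70.0% G and C and held 25 CpG dinucleotides, whereas both windows of Gabra3 held 0 CpG at 39.3% and 43.0% G and C.

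PV interneurons had a different make-up of these transcripts from the other types. Compared per length, as reads per kilobase of exon scaled to the library total (RPKM), Gabrb2, which encodes the beta 2 subunit, was the most abundant member in PV pools at 50.6 ± 8.68 RPKM (SD, n = 20). Gabrd followed at 32.1 ± 9.17 RPKM, and the gap between them was larger than either SD. Gabra3 came next at 25.9 ± 11.7 RPKM and Gabra4 at 14.3 ± 5.95 RPKM. At the bottom of the order in PV pools were Gabra5 (6.43 ± 4.42 RPKM), Gabrb1 (6.25 ± 3.25 RPKM) and Gabra2 (2.52 ± 2.17 RPKM).

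In the other types Gabra3, encoding alpha 3, had the highest mean level per length. It stood at 36.2 ± 10.9 RPKM (SD, n = 21) in SST, 32.5 ± 13.6 RPKM in PYC and 23.99 ± 10.6 RPKM in VIP pools. Gabrb2 was second in each of them, at 20.8 ± 7.597, 25.7 ± 9.48 and 23.2 ± 9.96 RPKM in the same order. The gap from Gabra3 to Gabrb2 exceeded the larger SD in SST pools but not in PYC or VIP pools. In PYC pools no 2 neighbours in the order (Gabra3, Gabrb2, Gabra5, Gabrb1, Gabra4, Gabra2, Gabrd) were further apart than the larger of their SDs. With the longest transcript in place of all exons as the length, Gabrb2 moved above Gabra3 in PYC and VIP pools, at 41.1 against 34.8 and 37.04 against 25.7 RPKM. Counted by library on exon length, Gabrb2 was the top member in 18 of 20 PV libraries and Gabra3 in 18 of 21 SST libraries, and on the longest transcript these counts were 20 and 13.

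As a share of the summed RPKM of the 7 genes, Gabrb2 and Gabrd made up 36.8% ± 6.09 and 23.2% ± 5.61 (SD, n = 20) in PV pools. The share of Gabrd was 7.096% ± 4.605 (SD, n = 21) in PYC, 7.12% ± 6.603 in SST and 5.504% ± 7.34 in VIP pools. Gabra5, alpha 5, made up 15.1% ± 7.46 in PYC pools and between 4.66% and 5.95% on average in the 3 interneuron types. Gabra2 ranged from 1.93% ± 1.81 in PV to 14.1% ± 8.49 in VIP pools. The shares describe only these 7 genes and leave out the other subunits.

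**Figure D1:**
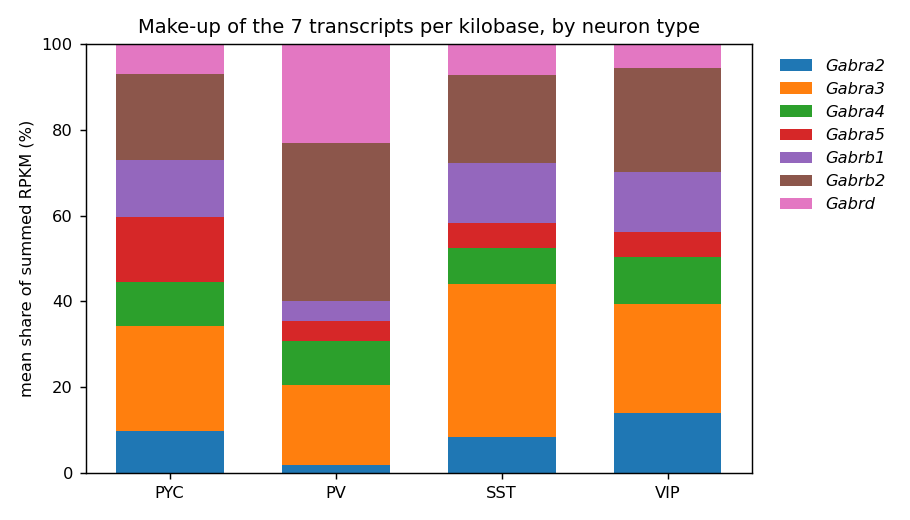
Mean share of the summed RPKM of the 7 genes (%, vertical axis) in each neuron type, with 21 libraries of PYC, SST and VIP and 20 of PV. Gabrb2 and Gabrd take 36.8% and 23.2% of the PV bar, and Gabra2 takes 1.93%.

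Each type was next set against the mean of the other 3 types, with ages weighted equally, to ask which neuron type each subunit marks. The test was edgeR's quasi-likelihood F-test over 19208 genes, with Benjamini-Hochberg adjustment and a call at an adjusted p under 0.05. In PV pools 2 of the 7 genes were higher, Gabrd and Gabrb2, where 8.29% of all genes tested were called higher, and 2 were lower, Gabra2 and Gabrb1, where 8.75% were called lower. In PYC pools 3 were higher, Gabra5, Gabra2 and Gabrb1, against 8.02% of all genes, and none was lower, against 5.31%. In SST pools none was higher (5.46% of all genes) and Gabrb2 was lower (2.55%). In VIP pools Gabra2 was higher (7.79%), and Gabrb2 and Gabrd were lower (4.18%). Gabra3 and Gabra4 passed in none of these 4 comparisons. The median log2 difference of the 7 genes was -0.14 in PV, 0.39 in PYC, -0.52 in SST and -0.44 in VIP pools, beside -0.05, 0.01, 0.05 and 0.07 for all genes tested. Because one contrast includes each type among the others' controls, these 4 comparisons are not independent of each other.

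**Figure D2:**
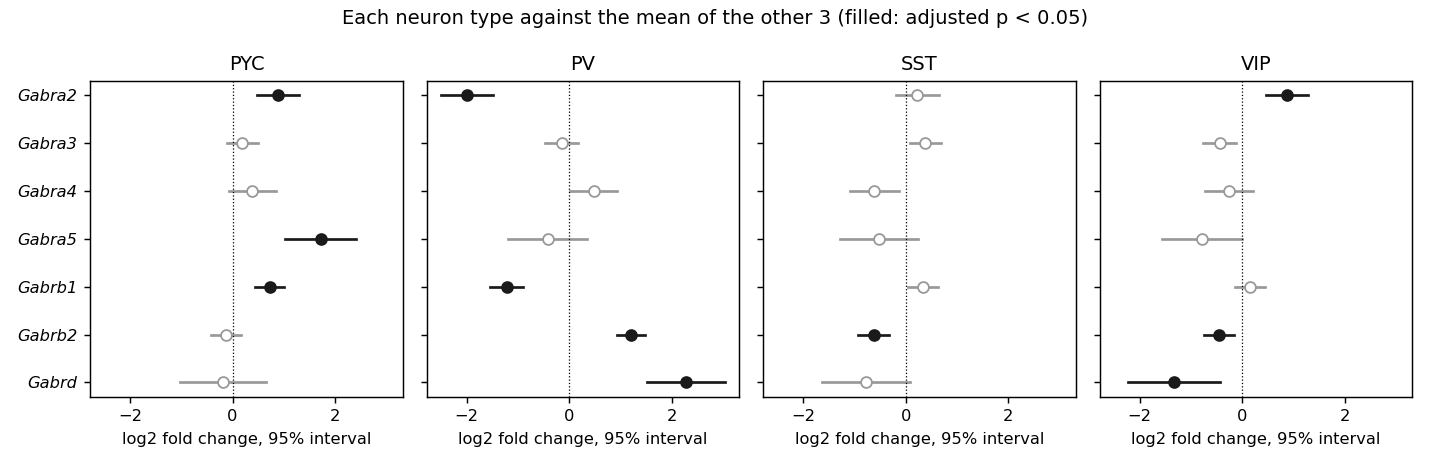
Log2 fold change of each gene in 1 neuron type against the mean of the other 3 (horizontal axis), with 95% intervals from the standard error and filled points for an adjusted p under 0.05. Gabrd at 2.28 and Gabra2 at -1.995 in PV pools lie farthest from 0, and Gabra3 and Gabra4 are open in all 4 panels.

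Pairs of types were compared in the same fit. Between PYC and PV pools 5 of the 7 genes were called (16.8% of all genes), between PV and SST pools 4 (10.9%) and between PV and VIP pools 4 (16.8%). Each of the other 3 pairs gave 1 call. It was Gabra5 between PYC and SST pools (10.8% of all genes) and between PYC and VIP pools (9.46%), and Gabra3 between SST and VIP pools (6.63%).

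Among the alpha subunits, Gabra2 was scarce in PV interneurons. The alpha 2 subunit is a synaptic subunit that is enriched at the axon initial segment of pyramidal cells, among other sites. Its median was 15.3 CPM (range 1.499 to 51.4, n = 12) in old and 13.7 CPM (range 1.97 to 47.6, n = 8) in young PV pools. In the other interneurons it was 62.8 CPM (range 14.9 to 106, n = 12) in old and 59.4 CPM (range 39.6 to 146, n = 9) in young SST pools. It was 87.95 CPM (range 39.99 to 185, n = 12) in old and 62.1 CPM (range 33.1 to 166, n = 9) in young VIP pools. All 20 PV libraries lay below the median of the other 63, and 10 of them lay below the lowest of those. In pyramidal cells the median was 95.1 CPM (range 49.00 to 187, n = 12) in old and 77.9 CPM (range 37.4 to 143, n = 9) in young PYC pools, which overlapped the SST and VIP values over most of the range.

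The log2 difference of Gabra2 was -1.995 ± 0.26 (SE, adjusted p = 3.17e-10) in PV pools against the other types. In PYC pools it was 0.89 ± 0.21 (SE, adjusted p = 7.60e-04) and in VIP pools 0.87 ± 0.21 (SE, adjusted p = 0.00131). Both of these positive values rest on a reference that includes PV, and set directly against each other PYC and VIP differed by 0.01 ± 0.27 (95% interval -0.51 to 0.54). PYC exceeded SST by 0.50 ± 0.27 (SE, adjusted p = 0.288) and VIP exceeded SST by 0.49 on the log2 scale (95% interval of SST minus VIP -1.01 to 0.04), and neither difference passed. The order of Gabra2 was therefore PYC and VIP, then SST, with only the step down to PV larger than the spread.

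Gabra3 was the most evenly expressed alpha subunit. Alpha 3 is a synaptic subunit that is prominent in the deep layers of the developing and adult cortex. Its median was 135 CPM (range 87.7 to 223, n = 12) in old and 141 CPM (range 98.9 to 233, n = 9) in young SST pools. It was 151 CPM (range 43.7 to 253, n = 12) in old and 129 CPM (range 15.6 to 189, n = 9) in young PYC pools. The ranges overlapped almost completely. The PV and VIP medians were lower, at 95.3 CPM (range 33.3 to 229.6) and 117 CPM (range 56.7 to 143) in old and young PV pools and 91.3 CPM (range 40.8 to 181) and 96.3 CPM (range 15.2 to 177) in old and young VIP pools. The difference between SST and VIP pools was 0.62 ± 0.19 (SE, adjusted p = 0.0352) and this call was kept under 4 of 10 alternatives. The other pairs differed by no more than 0.47 in either direction and were not called.

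Gabra4 varied widely between libraries of the same type. Alpha 4 joins delta in receptors outside the synapse in the thalamus, dentate gyrus and cortex. Its median was 96.3 CPM (range 6.398 to 145, n = 12) in old and 64.96 CPM (range 46.7 to 155, n = 8) in young PV pools. In PYC pools the 2 ages were at 70.5 CPM (range 36.2 to 124) and 109 CPM (range 9.01 to 133), in SST pools at 41.2 CPM (range 8.64 to 111) and 51.9 CPM (range 13.2 to 93.6), and in VIP pools at 53.1 CPM (range 20.9 to 127) and 59.7 CPM (range 0.599 to 106), old first in each pair. The largest log2 difference was between PV and SST pools, at 0.82 ± 0.29 (SE, adjusted p = 0.0578). The 6 libraries with few mitochondrial counts held 0.599 to 36.2 CPM of Gabra4 with a median of 17.4, against 6.40 to 154.6 CPM with a median of 72.8 in the other 77. None of the 6 was a PV library. PYC minus SST was 0.75, and SST pools were at -0.61 against the other types together, neither of them called. Without those libraries PV minus SST was 0.75, PYC minus SST 0.82 and the SST value -0.67, and all 3 passed (adjusted p = 0.0196, 0.0109 and 0.0164). PV minus SST also passed with the F number of the library titles as a factor (0.98) and with limma-voom (1.03). By limma-voom, Gabra4 was called for PYC minus SST (1.05) and as higher than the other types in PV (0.64) and PYC pools (0.66) as well.

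Gabra5 was the member most enriched in pyramidal cells. Alpha 5 forms receptors that carry tonic inhibition in hippocampal and cortical pyramidal neurons and is a drug target in work on cognition. Its median was 49.5 CPM (range 27.3 to 99.02, n = 12) in old and 46.1 CPM (range 8.03 to 98.6, n = 9) in young PYC pools. In PV pools it was 27.6 CPM (range 0 to 41.6) in old and 13.2 CPM (range 0.495 to 23.4) in young mice. In SST pools it was 20.6 CPM (range 0 to 45.6) and 12.00 CPM (range 0.577 to 36.96), and in VIP pools 15.2 CPM (range 4.14 to 55.1) and 4.12 CPM (range 0 to 53.6). Of the 21 PYC libraries, 20 lay above the median of the other 62 and 9 above the highest of them, so the groups overlapped. Gabra5 had no count in 2 PV, 1 SST and 2 VIP libraries.

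The log2 difference of Gabra5 in PYC pools against the mean of the other types was 1.72 ± 0.35 (SE, adjusted p = 8.27e-05). By pair it was 1.60 ± 0.48 against PV, 1.68 ± 0.47 against SST and 1.87 ± 0.48 against VIP pools, with adjusted p from 0.00363 to 0.0113. With 1 age alone none of the 3 pairs passed, at differences of 1.24 to 2.15 (adjusted p from 0.0953 to 0.3099). The 3 interneuron types differed from each other by at most 0.27 ± 0.47 (PV minus VIP, 95% interval -0.65 to 1.19), an interval that still allows a difference of over 2-fold. Slc17a7 was present in the interneuron pools, as given above, and how much Gabra5 in them came with it was not tested.

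**Figure D3:**
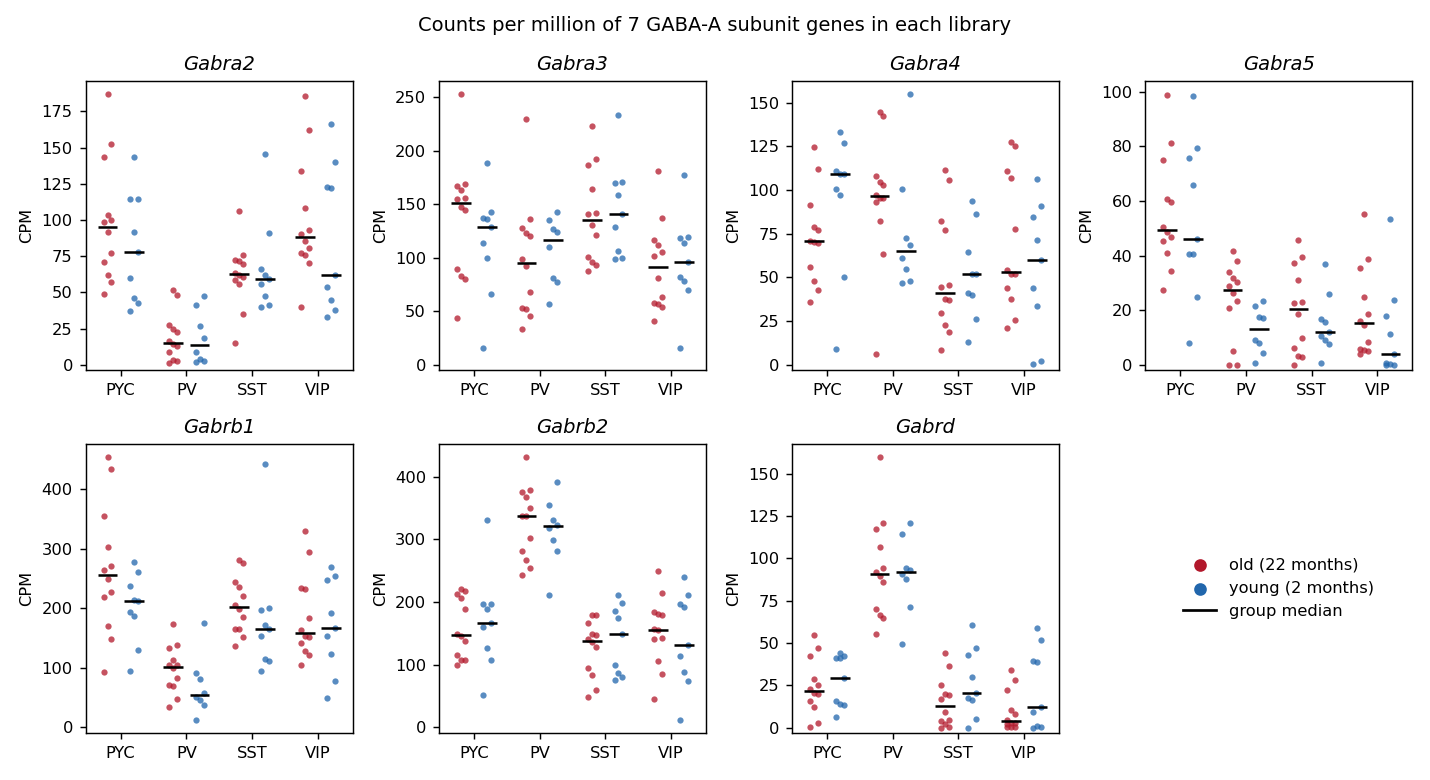
CPM (vertical axis, a separate scale for each gene) of the 7 genes in each of the 83 libraries, by neuron type, with old libraries in red, young in blue and group medians as lines. Gabrd and Gabrb2 stand higher and Gabra2 and Gabrb1 lower in PV pools, Gabra5 is highest in PYC pools, and old and young points overlap in every panel.

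The beta subunits went in opposite directions in PV interneurons. Beta subunits form the GABA site with alpha and also hold the site of several intravenous anaesthetics. Gabrb2, beta 2, had a median of 338 CPM (range 244 to 432, n = 12) in old and 321 CPM (range 211 to 391, n = 8) in young PV pools. In PYC pools it was 147 CPM (range 99.6 to 221) in old and 166 CPM (range 52.3 to 331) in young mice, in SST pools 138 CPM (range 48.9 to 179) and 149 CPM (range 75.4 to 212), and in VIP pools 156 CPM (range 45.1 to 250.3) and 131 CPM (range 12.6 to 239.6). All 20 PV libraries lay above the median of the other 63, and 9 lay above the highest of those. The log2 difference was 1.20 ± 0.14 (SE, adjusted p = 1.46e-11) in PV, -0.63 ± 0.15 (SE, adjusted p = 0.00245) in SST and -0.44 ± 0.15 (SE, adjusted p = 0.0361) in VIP pools. In this fit PYC, SST and VIP pools did not differ from each other past the threshold. The 95% interval was 0.02 to 0.72 for PYC minus SST and -0.49 to 0.21 for SST minus VIP. By limma-voom, PYC minus SST was 0.56 and was called (adjusted p = 0.0212). The calls below 0 in SST and VIP pools were made against a mean that holds the PV level. The call in VIP pools was kept under 5 of 10 alternatives and in 70 of 83 fits that each left out 1 library.

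Gabrb1, beta 1, was lowest in PV interneurons. Its median was 102 CPM (range 34.5 to 173, n = 12) in old and 54.6 CPM (range 12.3 to 175, n = 8) in young PV pools. In SST pools it was 203 CPM (range 136 to 281) in old and 166 CPM (range 95.1 to 442) in young mice, in VIP pools 159 CPM (range 106 to 331) and 168 CPM (range 49.7 to 269), and in PYC pools 256 CPM (range 92.9 to 454) and 212 CPM (range 95.02 to 278). All 20 PV libraries lay below the median of the other 63, and 5 lay below their minimum. The log2 difference was -1.22 ± 0.17 (SE, adjusted p = 4.41e-09) in PV and 0.72 ± 0.14 (SE, adjusted p = 6.94e-05) in PYC pools. By pair, Gabrb1 was lower in PV than in SST pools by -1.17 ± 0.19, than in VIP pools by -1.03 ± 0.19 and higher in PYC than in PV pools by 1.46 ± 0.19. PYC against SST (0.29 ± 0.18) and PYC against VIP (0.42 ± 0.18) did not pass.

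Gabra2 and Gabrb1 are also known from glia, so the astrocyte markers are given beside them. Summed over 12 markers, the median was 2488 CPM (range 1366 to 3389.8) in old and 2161 CPM (range 1909 to 2782) in young PV pools. It was 2907 CPM (range 2055 to 3492) and 3197 CPM (range 2775 to 4086) in old and young PYC pools, 2818 CPM (range 2181 to 3427) and 2909 CPM (range 2321 to 3732) in SST pools, and 3505 CPM (range 2470.4 to 4294) and 3628 CPM (range 2861 to 4516) in VIP pools. The PV sums were the lowest and the VIP sums the highest by median. Their ranges overlapped in old pools, whereas every young VIP sum lay above every young PV sum. In PV pools 1 of the 12 markers was called higher and 2 lower (8.29% and 8.75% of all genes tested). In PYC pools 1 was called higher and 1 lower (8.02% and 5.31%). In SST pools none was called higher and 2 lower (5.46% and 2.55%), and in VIP pools 2 higher and none lower (7.79% and 4.18%). The part of astrocyte RNA in the PV values of Gabra2 and Gabrb1 was not tested. Of the old interneuron pools, PV had the lowest and VIP the highest median of Slc17a7, as given above. How much Gabra2 and Gabrb1 in the interneuron pools came with Slc17a7 was not tested either.

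Within each library, Gabrb2 and Gabrb1 can be compared without a scaling factor. Per length, Gabrb2 exceeded Gabrb1 in 20 of 20 PV libraries, with a median log2 ratio of 3.11 (range 1.74 to 5.23). It exceeded Gabrb1 in 14 of 21 PYC libraries (median log2 ratio 0.65), 16 of 21 SST libraries (0.70) and 17 of 21 VIP libraries (0.93). On plain counts Gabrb2 was above Gabrb1 in 20 of 20 PV libraries and in 5 PYC, 3 SST and 10 VIP libraries. The lowest PV ratio was inside the range of the other types, whose highest values were 1.93 in PYC, 1.91 in SST and 2.15 in VIP pools. For the head-to-head neighbours Gabra4 and Gabrb1, the median log2 ratio was 1.37 (range -3.25 to 3.75) in PV and -0.14 (range -2.66 to 0.63) in PYC pools. It was -0.94 (range -3.39 to 0.88) in SST and -0.39 (range -6.51 to 1.62) in VIP pools. These ranges overlapped widely, and the difference between types was not tested. The lowest VIP ratio came from VIP young replicate 3, a library with few mitochondrial counts and 2 counts of Gabra4.

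**Figure D4:**
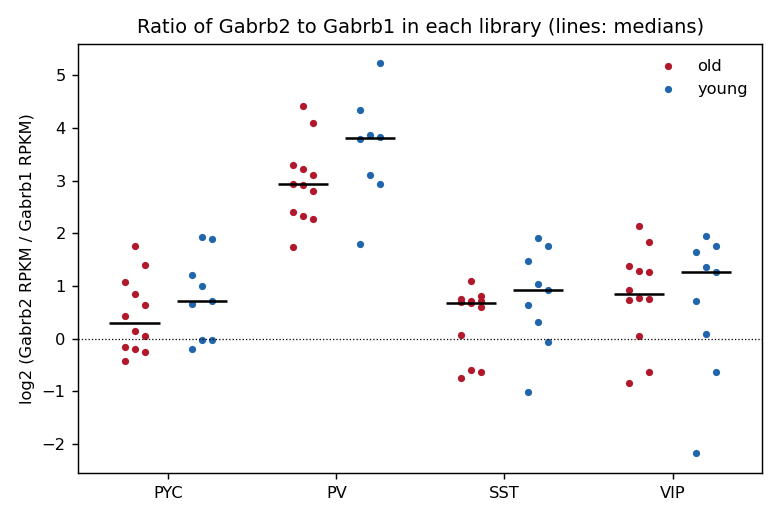
Log2 ratio of Gabrb2 to Gabrb1 (RPKM, vertical axis) in each library, by neuron type and age, with group medians as lines. The PV libraries lie between 1.74 and 5.23, and the other 63 lie between -2.18 and 2.15.

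The delta subunit gene Gabrd had the largest difference of the 7 between PV interneurons and the other types. Delta replaces gamma in receptors outside the synapse that are sensitive to neurosteroids, and it pairs with alpha 4 in principal cells. Its median was 90.8 CPM (range 55.4 to 159.8, n = 12) in old and 91.8 CPM (range 49.1 to 121, n = 8) in young PV pools. In PYC pools it was 21.5 CPM (range 0.368 to 54.6) in old and 29.1 CPM (range 6.19 to 43.9) in young mice, in SST pools 12.9 CPM (range 0 to 43.9) and 20.6 CPM (range 0 to 60.4), and in VIP pools 3.599 CPM (range 0.102 to 34.2) and 12.4 CPM (range 0 to 59.1). Of 20 PV libraries, 18 lay above all 63 others, whose highest value was 60.4 CPM. Gabrd had no count in 2 SST libraries and 1 VIP library.

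The log2 difference of Gabrd was 2.28 ± 0.39 (SE, adjusted p = 3.37e-06) in PV pools. By pair it was 2.71 ± 0.55 against VIP and 2.29 ± 0.54 against SST pools, and PYC minus PV was -1.85 ± 0.53. In young libraries alone these were 2.06, 1.87 and -1.78 and did not pass (adjusted p = 0.0947, 0.231 and 0.179), and PYC minus PV did not pass in old libraries alone either (-1.90, adjusted p = 0.0555). PYC, SST and VIP pools were not separated in this fit, where PYC minus VIP was 0.86 ± 0.52 (95% interval -0.16 to 1.87), but limma-voom gave 2.03 for that pair and called it (adjusted p = 0.0478). The call of lower Gabrd in VIP pools (-1.33 ± 0.46 (SE, adjusted p = 0.0421)) was kept under 4 of 10 alternatives and in 68 of 83 fits that each left out 1 library. It is the least stable of the 11 calls of a type against the others. This call was made against a mean that holds the PV level, and SST minus VIP was 0.42 ± 0.51 (SE, adjusted p = 0.803). Within libraries, Gabra2 had a lower CPM than Gabrd in 20 of 20 PV libraries and more in 20 of 21 PYC, 19 of 21 SST and 18 of 21 VIP libraries. CPM takes no account of length, and Gabra2 has 7640 bp of exons against 2875 bp for Gabrd. Per length the means of Gabra2 and Gabrd were much closer in PYC (11.96 and 8.90 RPKM) and SST pools (8.44 and 6.97 RPKM). Both gaps were smaller than the larger SD. In VIP pools they were 12.4 and 5.40 RPKM.

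The study's main comparison was old against young within each type. None of the 7 genes was called in any type by edgeR's quasi-likelihood F-test, against 0% of 12508 genes tested in PYC, 12564 in PV, 12805 in SST and 12337 in VIP pools. At an unadjusted p under 0.05 there was again no member in any type. Over all genes 364, 291, 368 and 368 passed that level in the same order. In every type these were a smaller share of the genes tested than the level of 0.05 itself. DESeq2 and limma-voom called no member in any type either. Old and young ranges overlapped for every gene in every type.

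The smallest p among the 28 age tests was for Gabrb1 in PYC pools, where old minus young was 0.39 ± 0.21 on the log2 scale (edgeR quasi-likelihood F-test, unadjusted p = 0.0717, adjusted p = 0.9998). Mean Gabrb1 was 266 ± 109 CPM (SD) in the 12 old and 201 ± 58.9 CPM (SD) in the 9 young pools. Gabrb1 had positive age differences in all 4 types, of 0.48 ± 0.31 in PV, 0.16 ± 0.21 in SST and 0.17 ± 0.26 in VIP pools, and its values in SST and VIP pools turned negative under 1 alternative each. With 1 library left out at a time, it ran from 0.32 to 0.81 in PV (highest without PV young replicate 8), from 0.068 to 0.44 in SST (highest without SST young replicate 5) and from 0.036 to 0.27 in VIP pools. Gabra5 was also positive in all 4, from 0.09 ± 0.33 in PYC to 0.87 ± 0.74 in PV pools, although limma-voom gave -0.03 in SST pools. Its value in VIP pools was 0.66, and 1.42 without VIP young replicate 8. In PV pools its medians were 27.6 CPM in old and 13.2 CPM in young mice. Gabra4 had -0.37 ± 0.30 in PYC pools, where 2 of 12 old libraries exceeded the young median, and 0.30 ± 0.31 in PV pools, where 10 of 12 did. None of these differences passed the test.

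The precision of the age tests differed widely between genes. The narrowest 95% interval was that of Gabrb2 in PV pools, -0.24 to 0.29 on the log2 scale. Gabrd in PV pools had an interval of -0.43 to 0.46. Where Gabrd was scarce the interval was wide, with -1.24 ± 0.99 (95% interval -3.19 to 0.71) in VIP and -0.82 ± 0.77 (-2.33 to 0.70) in SST pools. Of the 28 intervals, 19 lay within a 2-fold change in either direction. The 9 that reached beyond it were those of Gabra5 in the 3 interneuron types, Gabrd in PYC, SST and VIP pools, Gabra2 and Gabrb1 in PV pools and Gabra4 in VIP pools.

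**Figure D5:**
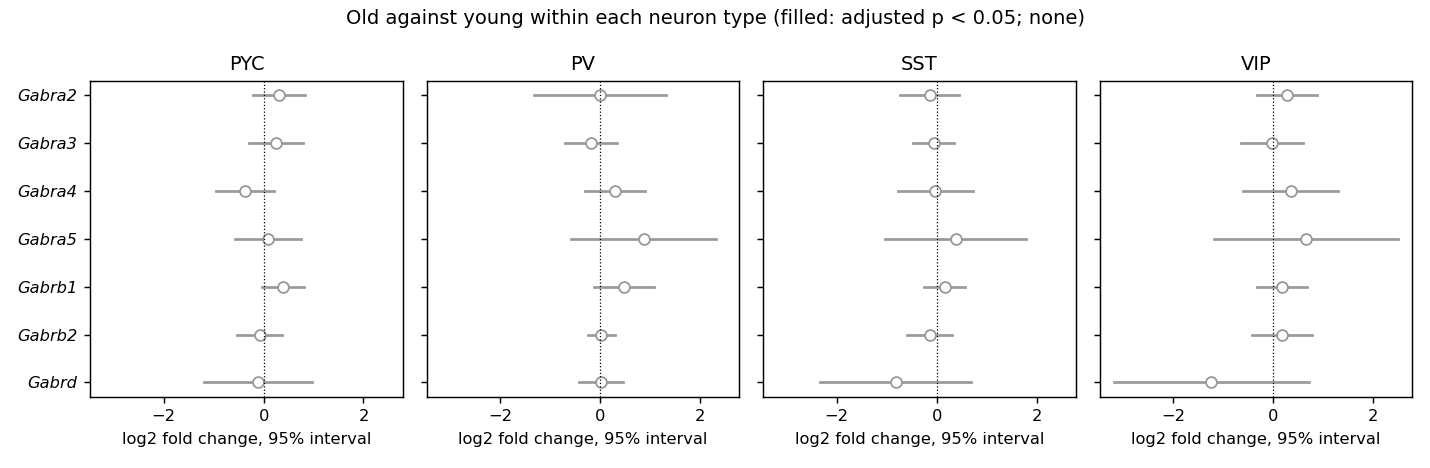
Log2 fold change, old against young, of each gene within each neuron type (horizontal axis), with 95% intervals from the standard error. All 28 points are open, since no adjusted p was under 0.05, and the intervals of Gabrd in VIP and SST pools and of Gabra5 in the interneurons are the widest.

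Whether age differences differed between types was tested as an interaction. None of the 7 genes was called (edgeR quasi-likelihood F-test, adjusted p = 1 for each), against 3.13% of all genes, and none had an unadjusted p under 0.05. Restricting the fit to the 9604 genes at or above the median abundance, where all 7 members lie, lowered the calls for the interaction over all genes from 601 to 1, and no member was among them. In that restricted fit, 2172 genes were called in PV, 1602 in PYC, 725 in SST and 1155 in VIP pools against the others. The members' calls were kept in all 4 types.

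The other subunits give the setting of these 7 genes. Of 12 other GABA-A subunit genes listed, 6 passed the filter on low counts in the fit of all types. In PV pools 3 were higher and 1 lower (8.29% and 8.75% of all genes tested). In PYC pools 1 was higher and 1 lower (8.02% and 5.31%). In SST pools none was higher and 1 lower (5.46% and 2.55%), and in VIP pools none was called (7.79% higher and 4.18% lower). Gabrg3, a gamma subunit gene, was higher in PV pools (0.95 ± 0.24 (SE, adjusted p = 0.00233)). Gabrg1 and Gabrq were not called in any type. None of the listed subunit genes was called between ages in any type, where 4 or 5 of the 12 were tested and none had an unadjusted p under 0.05.

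Genes that anchor and traffic the receptors were counted in the same way. Of 24 listed, 23 were matched and tested. In PV pools 7 were higher and 4 lower (8.29% and 8.75% of all genes tested), in PYC pools 3 and 3 (8.02% and 5.31%), in SST pools 2 and 1 (5.46% and 2.55%), and in VIP pools 1 and 3 (7.79% and 4.18%). In PV pools the 3 smallest p were those of Hap1 (-1.92 ± 0.24 (SE, adjusted p = 2.19e-10)), which recycles receptors to the surface, Shisa7 (-0.99 ± 0.14 (SE, adjusted p = 6.62e-09)), an auxiliary subunit, and Iqsec3 (0.63 ± 0.10 (SE, adjusted p = 8.38e-07)), a gephyrin partner. In PYC pools Igsf9b was higher (1.16 ± 0.15 (SE, adjusted p = 6.84e-10)) and Slitrk3 lower (-0.78 ± 0.19 (SE, adjusted p = 0.00108)). Slitrk3, an adhesion protein of inhibitory synapses, was higher in SST pools (0.90 ± 0.17 (SE, adjusted p = 3.51e-05)), and Hap1 was higher in VIP pools (1.28 ± 0.19 (SE, adjusted p = 2.11e-07)). None of the 23 was called between ages, and 2, 0, 1 and 3 had an unadjusted p under 0.05 in PYC, PV, SST and VIP pools.

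Genes whose log2 CPM followed each member most closely over the 83 libraries are given as a description, from 8949 genes with a mean of at least 10 CPM. Libraries share type, age, depth and capture, so these values hold the differences between types. Among the nearest to Gabrd were Atp2a2 (Pearson r 0.69) and Nat8l (0.64). Among the nearest to Gabrb2 were Ttc39b (0.71) and Arhgap5 (0.67), and the 3 nearest to Gabra2 were Fxyd6 (0.77), Kcnd3 (0.75) and Cpne7 (0.73). Gabrb1 was nearest to the calcium pump gene Atp2b4 (0.71), Gpm6a (0.70) and Scn2a (0.69). Gabra5 was nearest to Psmd13 (0.52), Rab3ip (0.52) and Dclk1 (0.50), and Gabra3 to Fam189a1 (0.47), Efcab14 (0.45) and Tk2 (0.45). Gabra4 was nearest to the mitochondrially encoded mt-Nd1 (0.67) and mt-Co1 (0.64) and to Tpp2 (0.67), and as given above it was low in the 6 libraries with few mitochondrial counts.

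Among the members themselves, the highest correlations over the 83 libraries were Gabra4 with Gabrb2 (r = 0.56), Gabra2 with Gabrb1 (0.54) and Gabrb2 with Gabrd (0.53), and the lowest were Gabra2 with Gabrb2 (-0.53) and Gabra2 with Gabrd (-0.52). With the mean of each of the 8 groups removed, Gabra4 with Gabrb2 had 0.53, whereas Gabra2 with Gabrb1 had 0.11, Gabrb2 with Gabrd 0.23, Gabra2 with Gabrb2 -0.15 and Gabra2 with Gabrd -0.19. Gabra4 and Gabrb2 were both low in the 6 libraries with few mitochondrial counts, where Gabrb2 had a median of 88.2 CPM against 183.7 CPM in the other 77.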

How the data were processed

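The deposited table holds raw read counts per Ensembl gene for 83 libraries, which the authors did not normalize. Per the submitters' processing notes the aligner was HISAT2 and the build GRCm38, and per the labels' protocols the kit was stranded and made for picogram amounts of total RNA. No source used here gives the counting tool, annotation release or strand setting. Of 48795 genes, 48349 matched a symbol. CPM was taken over the total of a library, and RPKM also used the union of exons in GENCODE release M21.

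The labels gave the neuron type and age of each library but not its mouse. Pools of different types may come from the same mice, and the p-values treat all pools as independent. The series names 12 old and 9 young mice.

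Types, pairs of types and the age by type interaction were tested in 1 fit of 8 groups, and age within each type, by edgeR 4.0.16 (R 4.3.3) with the robust quasi-likelihood F-test, TMM factors, filterByExpr with a minimum count of 10 and Benjamini-Hochberg adjustment over all genes tested, 2-sided. Standard errors come from the F statistic. The tests were tried on simulated counts. Alternatives were RLE size factors, other filters, DESeq2 1.42.0, limma-voom 3.58.1, the library total or the unexplained F number of the titles as a covariate, 1 age alone, leaving out the 6 libraries with under 3% mitochondrial counts, and leaving out each library. For a type against the others, the fits that left out 1 library kept the genes and the dispersion trend of all 83 libraries. The age fits that left out 1 library estimated both anew. All 7 members were to be named, with up to 6 other subunits by mean level, up to 3 scaffold genes per type by p, and the 3 genes with the highest r per member (log2 CPM, prior count 2). Some genes that this rule names are not reported here. The members and lists were chosen with earlier results of these data known. No molecular identifiers are named, so the true error is larger than counting error.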

Additional observations from a re-analysis of the deposited data

Results flagged for a closer look

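In groups of up to 10 libraries, a library was singled out where its gap to the nearest other library was a larger part of the group's range than Dixon's 95% critical value (0.493 for 9 libraries). This was asked of the 28 combinations of gene and young or old group that were small enough, all of them young, and chance alone singles out about 1 in 20. There were 3 such libraries, and none of them was among the 6 with few mitochondrial counts. Gabrb1 stood at 441.8 CPM in SST young replicate 5, where the next highest young SST library had 201.1 CPM. Gabra2 stood at 145.7 CPM in SST young replicate 3, where the next had 90.9 CPM. Gabra5 stood at 53.6 CPM in VIP young replicate 8, where the next had 23.7 CPM.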

How the results depend on the processing

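In PV pools against the mean of the other types, the calls of Gabra2, Gabrb1, Gabrb2 and Gabrd were kept under all 10 alternatives and in all 83 fits that left out 1 library, and so was that of Gabra5 in PYC pools. The number of members called was 4 throughout in PV, 3 in PYC and 1 in SST pools when 1 library was left out, and 1 to 4 in VIP pools. In VIP pools the counts were 1 with RLE size factors, 1 in old libraries alone, 1 without the libraries with few mitochondrial counts and 0 in young libraries alone, against 3. The VIP call of Gabrb2 was also lost with DESeq2, and that of Gabrd with the F number and with the library total. Young libraries alone gave 1 call in PYC pools and 0 in SST pools, and leaving out the libraries with few mitochondrial counts gave 2 in SST pools. Between PYC and PV pools old libraries alone gave 3 calls and young alone 2, against 5, and those lost included Gabrd and Gabra5 in each age alone. Between PV and SST and between PV and VIP pools the call of Gabrd was lost in young libraries alone. Between PYC and SST pools limma-voom gave 3, leaving out the libraries with few mitochondrial counts 2, and each age alone 0. Between PYC and VIP pools limma-voom gave 2 and each age alone 0. The call of Gabra3 between SST and VIP pools fell to 0 with DESeq2, the F number, RLE size factors, without the libraries with few mitochondrial counts and in each age alone. Each age alone leaves fewer libraries, and the cause of the other changes was not tested.

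No member was called for age under any alternative run or with any library left out, or for the interaction under the 7 alternatives run for it. Directions that turned all belong to differences that were never called. With the F number as a factor, the age difference was -0.13 for Gabrb2 and -0.068 for Gabrd in PV pools, -0.078 for Gabra3 in PYC pools and -0.0076 for Gabrb1 in SST pools. With limma-voom it was -0.030 for Gabra5 in SST pools, 0.033 for Gabra3 and -0.0083 for Gabrb1 in VIP pools. It was -0.0018 for Gabra2 in PV pools in the fit of all 8 groups, and -0.034 for Gabrb2 in VIP pools without the libraries with few mitochondrial counts. Sizes moved too. Over the 9 alternatives the age difference ran from -0.0018 to 1.20 for Gabra2 in PV pools and from 0.31 to 1.95 for Gabra5 in VIP pools. Between types, PV minus SST for Gabra5 was -0.0058 (F number), -0.016 (limma-voom) and -0.18 (young alone). PYC minus PV for Gabra4 was 0.016 (limma-voom), 0.062 (without few mitochondrial counts) and 0.28 (young alone). PYC minus VIP for Gabra2 was -0.043 (DESeq2 and RLE), -0.024 (F number), -0.049 (limma-voom), -0.026 (without few mitochondrial counts) and -0.0012 (young alone). PYC minus SST for Gabra3 was 0.024 in old and SST minus VIP for Gabrb2 0.015 in young libraries alone. In PYC pools against the others, Gabrb2 was 0.012 (limma-voom) and Gabrd 0.28 (limma-voom) and 0.10 (old alone).

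With each library left out in turn, age differences that took both signs ran from -0.22 to 0.36 for Gabra2, -0.040 to 0.087 for Gabrb2 and -0.070 to 0.11 for Gabrd in PV pools, from -0.054 to 0.25 for Gabra5, -0.20 to 0.076 for Gabrb2 and -0.30 to 0.0082 for Gabrd in PYC pools, from -0.23 to 0.13 for Gabra2, -0.14 to 0.082 for Gabra3 and -0.19 to 0.11 for Gabra4 in SST pools, and from -0.17 to 0.13 for Gabra3 in VIP pools. Pairs of types and the interaction were not run with libraries left out. On the longest transcript Gabrb2 had 47.6 RPKM over all libraries, against 29.9. No paired analysis was possible because the labels do not tie libraries to mice. The titles hold F and R numbers that no source used here explains, and the replicate numbers in the text only name libraries.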
